A study of Mus musculus with 5 samples.

Results

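The axon guidance ligands and receptors are 66 genes of the 19346 targets measured by spatial RNA profiling in E14.5 mouse embryo knees. They were chosen by name alone and comprise the semaphorins of classes 3 to 7, the plexins and neuropilins, the Slits and Robos, the Eph receptors and ephrins, and the netrins and netrin-Gs. Both genotypes carried Prrx1-Cre, a driver active in limb bud mesenchyme. The control animals carried that driver alone, and the GOF animals, of the same age, had in addition a gain-of-function (GOF) Pdgfra allele, a gene whose product binds platelet-derived growth factor. The labels do not say how the GOF allele was made. There were 2 animals per genotype, and the study title places them in work on how PDGFRα signaling shapes cartilage and fibrous tissue in forming synovial joints.

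Guidance ligands steer growing axons and migrating cells by attraction or repulsion. Secreted class 3 semaphorins mostly signal through plexins together with neuropilins, Slits bind Robos, netrins bind DCC and UNC5 receptors, and ephrins are membrane-bound ligands of the Eph receptor tyrosine kinases. Outside the nervous system the same families act in vessel patterning, tissue boundaries and skeletal development.

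Each value comes from a region of interest drawn on a section stained for the chondrocyte factor Sox9 and for DNA. The 46 and 40 control and 47 and 46 GOF regions were tagged as cartilage of the border zone, perichondrium between the joint elements, inter-joint space (Sox9-low interzone), fusion (Sox9-high interzone, drawn in GOF animals alone), or as cartilage or mesenchyme away from these types, called reference here, with 1 region of each per animal. Differences between region types are therefore partly set by how regions were drawn. A region held from 55470 to 617053 recovered counts. Levels below are the mean of log2(value + 1) over the regions of an animal and type, converted back to the normalized signal, and a pair of values always gives replicates 1 and 2 in that order. Fold changes are differences on the log2(value + 1) scale, which understates changes of low targets, with standard errors (SE) from limma. A call is a Benjamini-Hochberg adjusted p below 0.05 over all 19346 targets. Calls of limma, the main test, are given beside those of edgeR on recovered counts, and a gene without a call is one that neither of these tests called. The smallest p of a two-sided exact permutation test on 2 against 2 animals is 0.333.

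The guidance genes were low to moderate in signal. The negative probe, which measures background, averaged 2.84 over the animals and region types, and 51 of the 66 members averaged at least 2 times that value (5.68), compared with 55.1% of all targets. Mean signals over all groups ran from 3.88 for Sema6b to 39.5 for Robo1, although the levels of different probes do not rank transcripts. The 15 members under the background limit were Sema6b, Ntng2, Slit1, Plxnb3, Ntn5, Epha6, Robo3, Epha10, Epha2, Plxnc1, Sema7a, Epha1, Sema4d, Sema3g and Sema4a (mean signals up to 5.60). They stay in every count below, and a small or absent difference in them says little at this depth. Other members also read under 5.68 in some groups, as Epha3 did in control border-zone cartilage and perichondrium and Plxna4 in GOF border-zone cartilage. Plxnd1, Slit3 and Plxna2 did so in at least 1 animal of some groups. Differences that use such levels are limited by background.

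In control knees, several receptors and ligands were higher in inter-joint space than in border-zone cartilage. Limma called 4 of the 66 members between these types, against 1.3% of all targets, namely Plxna4, Robo1 and Epha7 higher and Efnb1 lower in inter-joint space. EdgeR called 13 members, 12 higher and 1 lower, against 5.33% of all targets. The median log2 difference was 0.14 over the members and 0.03 over all targets, and 43 of the 66 members had a positive difference.

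Among the receptors, Plxna4, a plexin A that transmits class 3 and class 6 semaphorin signals, differed most. Its gene lies on chromosome 6 at 32144543 to 32588192 (GRCm38.p6). Its level was 7.49 and 7.64 in control border-zone cartilage, 18.6 and 20.49 in perichondrium and 29.03 and 32.4 in inter-joint space. The 3 region types did not overlap between animals, and inter-joint space was highest. The log2 difference between inter-joint space and border-zone cartilage was 1.89 (SE 0.31, limma adjusted p = 0.0011). In these regions of mixed tissue, more cells of a type and more RNA per cell cannot be told apart.

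Robo1 (chromosome 16, 72027518 to 73047491) read 16.8 and 21.5 in control border-zone cartilage, 38.3 and 42.9 in perichondrium and 48.02 and 53.8 in inter-joint space. Both inter-joint space values lay above every border-zone value, with a log2 difference of 1.37 (SE 0.24, limma adjusted p = 0.00186). Epha7, an ephrin-A receptor (chromosome 4, 28813066 to 28967503), read 15.05 and 12.6 in border-zone cartilage, 21.03 and 21.7 in perichondrium and 28.3 and 30.6 in inter-joint space. It too was higher in inter-joint space in both animals, by 1.04 on the log2 scale (SE 0.22, limma adjusted p = 0.0128). Without control replicate 1 or control replicate 2, limma's adjusted p rose to 0.0625 and 0.107 for Plxna4, 0.432 and 0.258 for Robo1, and 0.382 and 1 for Epha7, so that none of these calls held. EdgeR called these 3 receptors with any 1 animal left out, with highest adjusted p values of 8.27e-07 for Plxna4, 0.00709 for Robo1 and 0.0177 for Epha7.

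Among the ligands, 2 ephrin-B genes had differences of opposite sign in controls. Efnb1, a membrane-bound ligand of EphB receptors (chromosome X, 99136061 to 99149022), read 19.6 and 23.8 in border-zone cartilage, 13.1 and 16.3 in perichondrium and 10.5 and 13.8 in inter-joint space. It was lower in inter-joint space than in border-zone cartilage in both animals, with a log2 difference of -0.79 (SE 0.19, limma adjusted p = 0.0452). That adjusted p was 0.785 without control replicate 1 and 0.501 without control replicate 2, and 0.193 and 0.189 without GOF replicates 1 and 2, which enter through the pooled spread. It also missed the threshold with the replicate block (0.0617), CPM (0.0646), the median over regions (0.11), perichondrium without interzone tags (0.0509) and control animals fitted alone (0.192). Efnb2, which marks arterial endothelium among other tissues, read 24.7 and 17.7 in border-zone cartilage and 37.5 and 48.1 in inter-joint space. Its log2 difference of 0.99 (SE 0.26) missed the limma threshold with an adjusted p of 0.0662, and edgeR called it higher (adjusted p = 0.00024, and 0.629 without control replicate 2).

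Sema3f, a secreted semaphorin that signals through neuropilin-2 (chromosome 9, 107681499 to 107710475), read 13.6 and 14.98 in control border-zone cartilage and 27.3 and 30.9 in inter-joint space. The groups did not overlap, and the difference of 0.98 (SE 0.26) had a limma adjusted p of 0.088 and an edgeR adjusted p of 1.99e-05. The other members that edgeR called higher in control inter-joint space were the receptors Plxna2, Epha3 and Ephb2, the membrane-bound semaphorins Sema5a and Sema6d, the secreted Sema3a and the ephrin Efna5, named after their values were seen. Of the 13 edgeR calls, 6 held in all 4 fits with 1 animal left out, those of Plxna4, Robo1, Epha7, Plxna2, Sema3f and Efnb1. Neither limma nor edgeR called the neuropilins, coreceptors of class 3 semaphorins. Nrp1 read 5.17 and 5.65 in border-zone cartilage and 8.76 and 8.32 in inter-joint space, and Nrp2 read 16.5 and 18.1 against 14.58 and 14.9. The B, C and D plexins had negative differences in 5 of 5 members, from -0.32 to -0.05, none of them called by limma or edgeR.

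Control perichondrium lay between these types for many of the same genes. Against border-zone cartilage limma called 0 members and 0.186% of all targets, and 7 members had an unadjusted p below 0.05, as did 1.94% of targets. EdgeR called 9 members, against 2.31% of targets, with Plxna4, Robo1, Efnb2, Sema3f, Epha7, Sema3a, Ephb2 and Plxna2 higher and Efnb1 lower in perichondrium. Of these, Plxna4 alone held in all 4 fits with 1 animal left out (edgeR log2 difference 1.40, adjusted p = 2.69e-09). The 13 semaphorins of classes 4 to 7 all had small positive differences, from 0.02 to 0.63, with none called by either test.

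Between control inter-joint space and perichondrium limma called 0 members and 0% of targets, and no member had an unadjusted p below 0.05, which 1.13% of targets had. EdgeR called 2 members, against 0.889% of targets. These were Plxna4 (log2 difference 0.65, adjusted p = 0.00186) and Epha3, an ephrin-A receptor that read 5.30 and 4.87 in perichondrium and 9.44 and 8.27 in inter-joint space (0.78, adjusted p = 0.00581). Leaving out control replicate 1 raised the Plxna4 value to 0.872, and leaving out control replicate 2 raised the Epha3 value to 0.924.

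In GOF knees the differences between inter-joint space and border-zone cartilage, measured in other animals, mostly ran the same way. Limma called 0 members and 0.501% of targets, with 5 members at an unadjusted p below 0.05 (2.98% of targets). EdgeR called 8 members, against 2.84% of targets, with Sema3f, Robo1, Efna5, Ntng1, Epha3 and Plxna2 higher and Efnb1 and Plxnb1 lower in inter-joint space. Sema3f read 20.7 and 18.8 in GOF border-zone cartilage and 45.3 and 39.6 in GOF inter-joint space, with no overlap (log2 difference 1.06, SE 0.26, limma adjusted p = 0.0974). Robo1 read 37.5 and 30.7 against 75.9 and 57.5, again with no overlap (0.94, SE 0.24, limma adjusted p = 0.0999). Sema3f, Robo1 and Efna5 kept their edgeR call in all 4 fits with 1 animal left out. For GOF perichondrium against border-zone cartilage limma called 0 members and 0.0103% of targets, and 2 members had an unadjusted p below 0.05, as did 1.3% of targets. EdgeR called Sema3f and Robo1 higher there, against 1.06% of targets. The Sema3f call held in all 4 fits with 1 animal left out, and the Robo1 adjusted p was 0.0989 without control replicate 1.

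Across the 66 members, 49 had the same sign of the inter-joint space difference in control and GOF animals (74.2%, compared with 60.2% over all targets). The correlation across genes was 0.68 over the members and 0.57 over all targets. Genes are not independent replicates, and the region types of both genotypes were drawn by the same tags. The comparison was not matched for signal, as 77.3% of members and 55.1% of all targets averaged at least 2 times the negative probe. Plxna4 stood farthest from equality, with a log2 difference of 1.89 in controls and 0.52 in GOF animals. Its GOF border-zone levels (5.16 and 5.68) did not exceed the background limit of 5.68, so the GOF difference is limited by background.

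**Figure D1:**
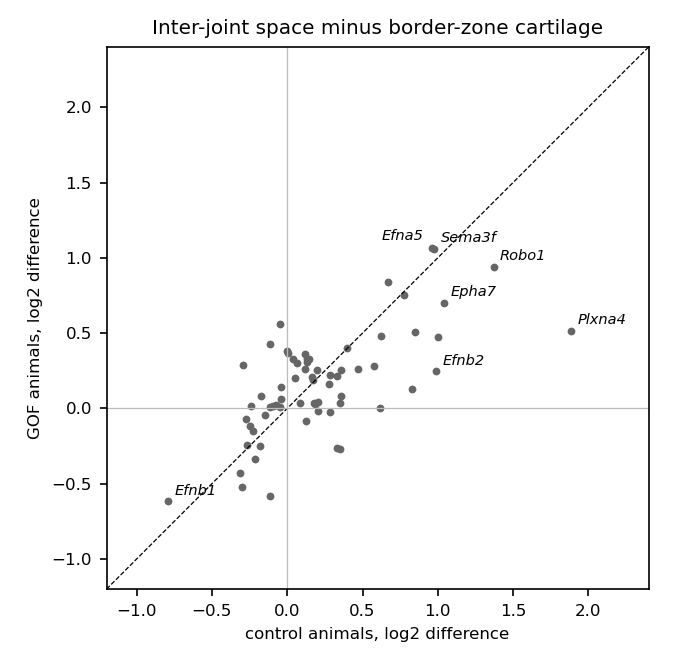
Log2 difference between inter-joint space and border-zone cartilage for each of the 66 guidance genes (points), in control animals (x axis) and in GOF animals (y axis), with equality as the dashed line. Plxna4 lies at 1.89 in controls and 0.52 in GOF animals, while Sema3f lies at 0.98 and 1.06.

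Plxna4 was the guidance gene whose genotype difference limma called. In GOF inter-joint space it read 9.12 and 7.32, compared with 29.03 and 32.4 in controls. In GOF perichondrium it read 7.45 and 8.06 against 18.6 and 20.49, and in GOF border-zone cartilage 5.16 and 5.68 against 7.49 and 7.64. The GOF animals were below both controls in all 3 types, by about a factor of 3.45 in inter-joint space. There the log2 fold change was -1.79 (SE 0.31, limma adjusted p = 0.0171, edgeR adjusted p = 1.09e-11). Plxna4 was the single limma call among the 66 members, against 0.103% of all targets. In perichondrium the fold change of -1.23 (SE 0.31) did not pass limma (adjusted p = 1) and passed edgeR (adjusted p = 1.76e-08). In border-zone cartilage it was -0.42 (SE 0.31) and passed neither test, with GOF levels that did not exceed the background limit of 5.68.

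The limma call for Plxna4 in inter-joint space was lost with any 1 animal left out, with adjusted p values of 0.341 and 0.299 without control replicates 1 and 2 and 0.59 and 0.775 without GOF replicates 1 and 2. The fold change stayed between -1.93 and -1.64 in those fits. EdgeR called it in all 4, with adjusted p values up to 3.7e-07. The log2 fold change of Plxna4 in inter-joint space minus that in border-zone cartilage was -1.37 (SE 0.44), where the border-zone part is limited by background. That difference of effects did not pass limma (adjusted p = 1), which called 0 members and 0% of targets, with 1 member and 0.62% of targets at an unadjusted p below 0.05. EdgeR called it (adjusted p = 0.000744) as its only member, against 0.279% of targets, and without control replicate 1 its adjusted p was 0.0659.

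Single regions showed the same order. In inter-joint space, Plxna4 ranged from 14.1 to 54.9 with a median of 32.6 in the 9 regions of control replicate 1, and from 15.2 to 58.9 with a median of 37.7 in the 9 of control replicate 2. In the 7 regions of GOF replicate 1 it ranged from 5.44 to 18.5 with a median of 9.06, and in the 8 of GOF replicate 2 from 3.63 to 18.1 with a median of 7.58. The lowest control regions therefore overlapped the highest GOF regions, while the animal means did not overlap.

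**Figure D2:**
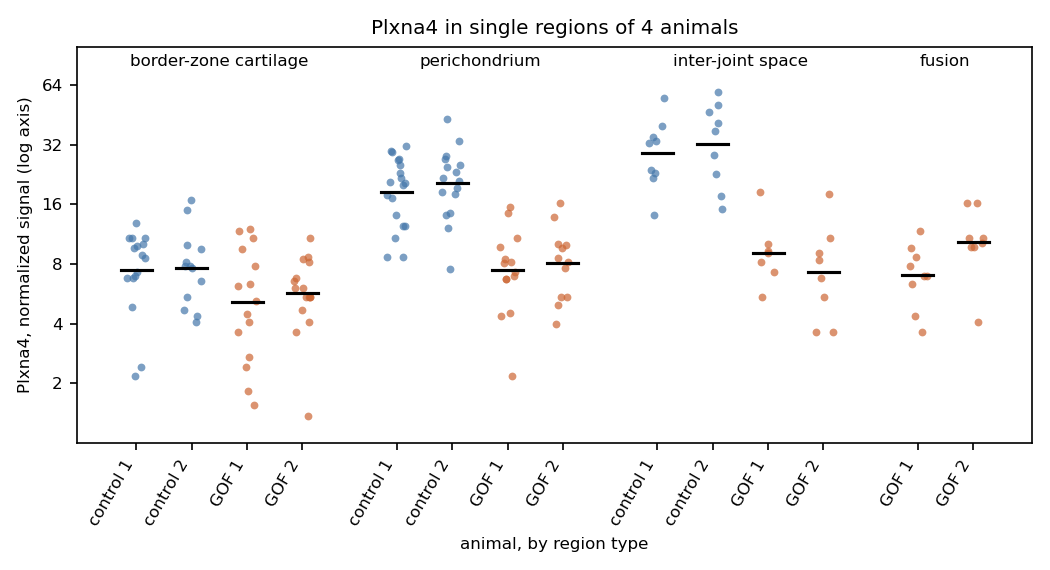
Normalized Plxna4 signal (log axis) in each region (points) of 4 animals, grouped by region type, with bars at the animal's level as defined in the text. Control inter-joint space averages 29.03 and 32.4, while GOF inter-joint space averages 9.12 and 7.32.

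Markers of joint interzone cells were also lower in sum where the Plxna4 differences were largest. The summed level of the 7 interzone markers measured was 748 and 809 in control inter-joint space against 377 and 449 in GOF, and 455 and 588 against 334 and 369 in perichondrium. EdgeR called 5 of the 7 lower in inter-joint space and 4 lower in perichondrium, against 1.86% and 1.18% of all targets called. In these types 2 and 3 of the 7 had a positive fold change. In border-zone cartilage, where Plxna4 was also below both controls, the sum was 170 and 196 in control and 183 and 199.8 in GOF, with 4 of 7 positive. Chondrocyte markers, 11 of 11 measured, summed to 1020 and 948 in control and 1008 and 1270 in GOF inter-joint space. Nerve and Schwann cell markers, 15 of 15 measured, summed to 78.3 and 82.8 against 80.7 and 76.98. Only 5 of these 15 averaged at least 2 times the negative probe over all groups. Their sum is therefore limited by background and does not show equal nerve content. The smallest recovered count of any target in a region was 1, so that no marker read 0 says nothing about detection. The part of these cell types in the Plxna4 difference was not tested.

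Beyond Plxna4, edgeR called 9 more members by genotype in inter-joint space, 10 in all, against 1.86% of all targets, and limma called none of the 9. The ligands Sema3a, Sema3f and Ntn1, the membrane-anchored netrin-G Ntng1 and the receptors Plxnd1, Plxna3, Epha4 and Robo2 were higher in GOF, and the receptor Ephb2 was lower. Of the 10 edgeR calls, those of Plxna4, Ntng1 and Plxnd1 held in all 4 fits with 1 animal left out, and 7 did not. The median log2 fold change by limma was 0.06 over the 66 members and -0.04 over all targets, and 38 members had a positive value.

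Ntng1 is a GPI-anchored relative of the netrins that binds a leucine-rich repeat partner on other cells. It read 7.90 and 9.39 in control and 21.9 and 13.9 in GOF inter-joint space. The genotypes did not overlap, although the GOF animals differed from each other, and the log2 fold change was 0.94 (SE 0.37, limma adjusted p = 1, edgeR adjusted p = 0.000102). In perichondrium it read 8.79 and 7.86 against 15.7 and 9.92, which edgeR also called (adjusted p = 0.00543, and 0.433 without control replicate 2). In border-zone cartilage it read 5.01 and 5.11 against 10.92 and 7.99, with no call by limma or edgeR (edgeR adjusted p = 0.0792).

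Plxnd1, a receptor for Sema3e with a known role in endothelial cells, read 5.78 and 5.07 in control and 12.2 and 10.5 in GOF inter-joint space. Both GOF animals were above both controls, with a log2 fold change of 0.94 (SE 0.34, limma adjusted p = 1, edgeR adjusted p = 0.000941). The summed level of 11 endothelial markers (11 of 12 measured) was 66.8 and 66.2 in control and 90.3 and 92.7 in GOF inter-joint space. All 11 had a positive fold change there, with a median of 0.37 against -0.04 over all targets. EdgeR called 1 of them, against 1.86% of all targets. Over all groups, 6 of the 11 averaged at least 2 times the negative probe, so the sum is partly background. The part of endothelial cells in the Plxnd1 difference was not tested. In GOF fusion regions the endothelial sum was 61.4 and 61.2 and Plxnd1 read 6.35 and 7.65, below GOF inter-joint space in both animals but with no call by limma or edgeR (edgeR adjusted p = 0.208).

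Sema3a, a secreted repellent that signals through neuropilin-1 and A plexins, read 13.6 and 13.7 in control and 23.97 and 19.3 in GOF inter-joint space (log2 fold change 0.62, SE 0.30, edgeR adjusted p = 0.00661). The same order held in perichondrium, with 13.96 and 14.3 against 22.4 and 18.6, and in border-zone cartilage, with 8.37 and 8.64 against 14.9 and 15.4. Sema3a was thus higher in both GOF animals than in both controls in all 3 joint types, and edgeR called it in each, while limma called it in none (adjusted p = 1). Each of these edgeR calls was lost with some animal left out, with adjusted p values up to 0.297 (without control replicate 1), 0.444 (without control replicate 2) and 0.871 (without control replicate 1) in inter-joint space, perichondrium and border-zone cartilage. Sema3f was higher in GOF in the same way, with 27.3 and 30.9 against 45.3 and 39.6 in inter-joint space and 24.2 and 24.8 against 36.2 and 31.8 in perichondrium, and edgeR called both (adjusted p = 0.0211 and 0.0379, up to 0.722 and 0.613 without control replicate 1).

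Among the Eph receptors, edgeR called Epha4, which binds ephrins of both classes, and Ephb2, a receptor for ephrin-Bs, in opposite directions. Epha4 read 18.6 and 19.4 in control and 32.8 and 30.3 in GOF inter-joint space, with no overlap (log2 fold change 0.70, SE 0.30, edgeR adjusted p = 0.00208, and 0.288 without control replicate 1). Ephb2 read 11.2 and 14.62 in control and 7.58 and 7.79 in GOF inter-joint space, and 10.97 and 13.98 against 7.70 and 8.07 in perichondrium. It was lower in both GOF animals in these 2 types (log2 fold change -0.67, SE 0.30, and -0.59, SE 0.30), and edgeR called both (adjusted p = 0.00588 and 0.0285, up to 0.264 and 0.913 without control replicate 2). In border-zone cartilage Ephb2 read 8.04 and 8.04 in control and 7.35 and 8.02 in GOF, with no call. Across the family 3 of 9 EphA and 3 of 5 EphB receptors had a positive genotype difference in inter-joint space.

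The stretches just before an annotated start of each of Ntng1, Sema3a, Epha4 and Ephb2 are shown because edgeR called 3 of these genes higher and the last lower in GOF inter-joint space. They are 250 bases each from RefSeq (GRCm38.p6), on the gene's strand, 5′ to 3′, with CpG dinucleotides in capitals, at chr3:110143473-110143722 (minus strand), chr5:13396534-13396783 (plus), chr1:77515089-77515338 (minus) and chr4:136836013-136836262 (minus).
Ntng1: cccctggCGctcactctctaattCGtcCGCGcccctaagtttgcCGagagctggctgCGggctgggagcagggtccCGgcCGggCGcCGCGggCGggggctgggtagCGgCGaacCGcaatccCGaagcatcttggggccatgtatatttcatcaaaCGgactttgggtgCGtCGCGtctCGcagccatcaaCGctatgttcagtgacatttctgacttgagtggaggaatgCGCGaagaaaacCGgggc
Sema3a: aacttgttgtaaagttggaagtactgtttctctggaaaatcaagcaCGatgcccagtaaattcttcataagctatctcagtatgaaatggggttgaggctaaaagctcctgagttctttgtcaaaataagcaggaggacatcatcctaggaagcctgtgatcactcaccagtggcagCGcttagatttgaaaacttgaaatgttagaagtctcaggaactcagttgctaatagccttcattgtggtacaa
Epha4: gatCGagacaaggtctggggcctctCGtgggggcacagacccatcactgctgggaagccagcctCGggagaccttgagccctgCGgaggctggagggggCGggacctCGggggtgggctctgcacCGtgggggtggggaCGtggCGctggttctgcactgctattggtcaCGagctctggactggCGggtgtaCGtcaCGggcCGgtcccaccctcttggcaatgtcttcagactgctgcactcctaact
Ephb2: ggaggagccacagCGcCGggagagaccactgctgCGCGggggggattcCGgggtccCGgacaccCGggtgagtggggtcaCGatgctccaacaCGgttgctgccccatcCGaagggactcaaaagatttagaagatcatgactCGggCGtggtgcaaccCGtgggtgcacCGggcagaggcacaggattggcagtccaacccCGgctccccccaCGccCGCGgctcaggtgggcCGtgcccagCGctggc
The Sema3a stretch held 2 CpGs, compared with 25, 14 and 20 in those of Ntng1, Epha4 and Ephb2, and 40.8% of its bases were G or C, against 62.4%, 66% and 68.4%. The Sema3a stretch lies well inside the gene (chromosome 5, 13124822 to 13603485). The Ntng1 stretch also lies inside its gene (chromosome 3, 109780050 to 110149972). The Ephb2 stretch lies just inside the end of its gene (chromosome 4, 136647536 to 136836326). Each of these stretches precedes an internal annotated start and does not describe the gene's outermost promoter. The Epha4 stretch runs past the end of its gene (chromosome 1, 77367182 to 77515107). An entry was found for 58 of the 66 members, 74 stretches in all. Searched on both strands, the EGR motif GCGNGGGCG was in 12 of the 74 and in 4.70% of 32851 promoters, the ETS motif CCGGAAGT in 0 and 2.88%, and TATAAA in 2 and 12.4%. None of these motifs occurred in the printed stretches. The 74 stretches came from 58 genes, so they are not independent. They were not matched to the 32851 promoters in base composition, and enrichment was not tested.

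The remaining receptors called in inter-joint space had smaller or more variable differences. Plxna3, a plexin A that acts with neuropilin-2, read 6.53 and 8.81 in control and 11.5 and 12.1 in GOF, with no overlap (log2 fold change 0.57, SE 0.24, edgeR adjusted p = 0.0476, and 0.819 without control replicate 1). Robo2, a Slit receptor, read 7.68 and 7.95 against 16.3 and 11.1, also with no overlap (0.72, SE 0.35, edgeR adjusted p = 0.0109, and 0.331 without control replicate 1). Ntn1, the secreted netrin that binds DCC and UNC5 receptors, read 5.72 and 6.08 against 8.004 and 10.1, with no overlap (edgeR log2 fold change 0.75, adjusted p = 0.0441, and 0.544 without control replicate 1). The A plexins therefore split, with Plxna3 called higher and Plxna4 called lower by edgeR. The neuropilins had log2 fold changes of -0.09 (Nrp1, SE 0.36) and -0.03 (Nrp2, SE 0.44).

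**Figure D3:**
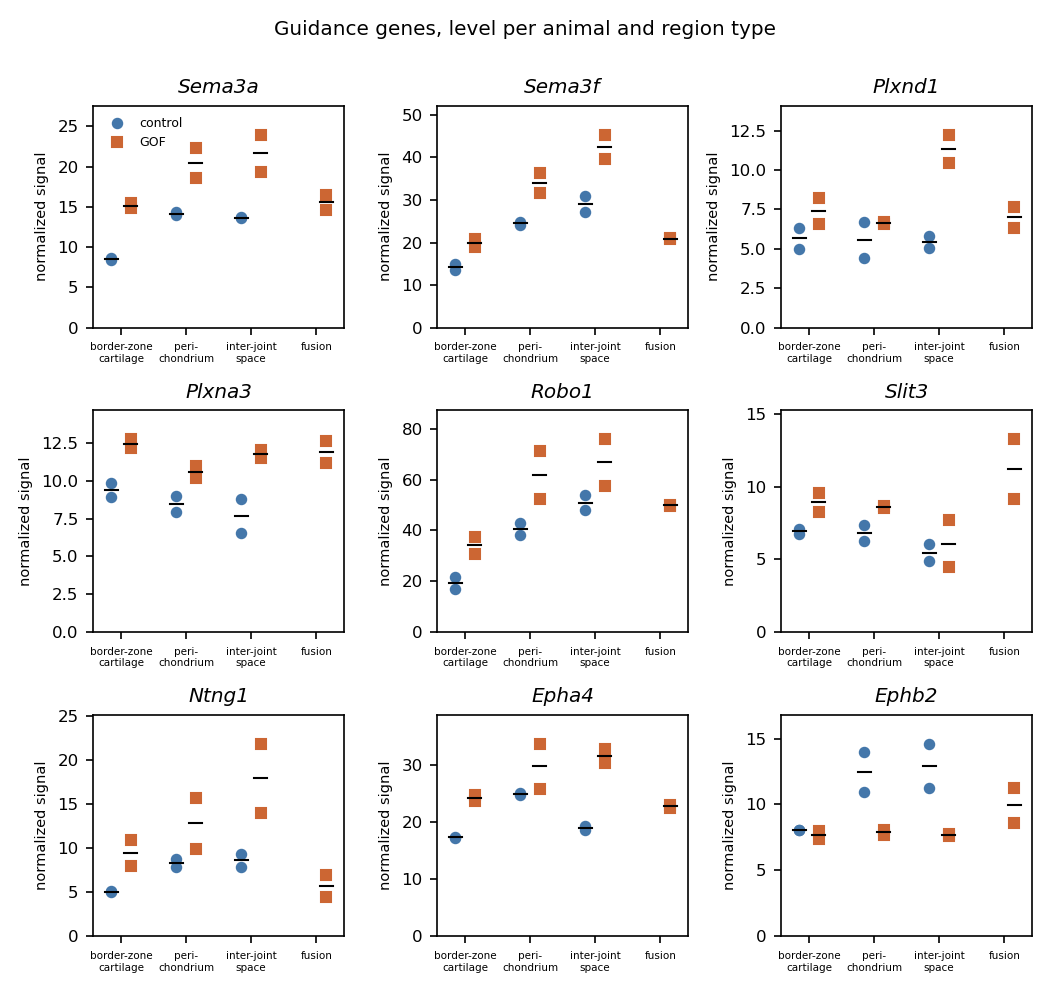
Level (normalized signal, linear axes from 0) of 9 guidance genes in each animal by region type, with control animals as circles, GOF animals as squares and bars at the mean of 2 animals. Sema3a lies higher in both GOF animals in all 3 joint types, while Ephb2 lies lower in perichondrium and inter-joint space.

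In perichondrium limma called 0 members by genotype and 0.0155% of targets, and 2 members, Plxna4 and Robo1, had an unadjusted p below 0.05, as did 0.941% of targets. EdgeR called 6 members, against 1.18% of targets, with Plxna4 and Ephb2 lower and Ntng1, Sema3a, Ntn1 and Sema3f higher in GOF. The Plxna4 call alone held in all 4 fits with 1 animal left out (adjusted p up to 0.000232). Robo1 read 38.3 and 42.9 in control and 71.3 and 52.5 in GOF perichondrium, with no overlap and a wide gap between the GOF animals (0.58, SE 0.24, edgeR adjusted p = 0.415). The chondrocyte marker sum in GOF perichondrium was 1397 and 2693, against 2264 and 2066 in control, so it also differed between the GOF animals. The part of chondrocytes in the Robo1 values was not tested. Efnb1 and Sema6a, among the 8 members with the lowest limma p there, read 13.1 and 16.3 against 18.02 and 18.6 and 21.2 and 23.2 against 31.98 and 32.5. Both genes were higher in the GOF animals without a call by either test.

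In border-zone cartilage limma called 0 members by genotype and 0.00517% of targets, with 5 members (Robo1, Sema6a, Efnb2, Sema3a and Ntng1, all higher in GOF) at an unadjusted p below 0.05, as were 0.336% of targets. EdgeR called Sema3a, Robo1 and Sema6a higher, against 0.16% of targets. Robo1 read 16.8 and 21.5 in control and 37.5 and 30.7 in GOF border-zone cartilage (log2 fold change 0.80, SE 0.24, edgeR adjusted p = 0.0159). Sema6a, a membrane-bound semaphorin that binds A plexins, read 22.3 and 21.3 against 32.5 and 39.2 (0.69, SE 0.26, edgeR adjusted p = 0.0159). Neither gene overlapped between genotypes, and without control replicate 1 the edgeR adjusted p was 1 for Robo1 and 0.804 for Sema6a.

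The other members with low p values in border-zone cartilage were also higher in GOF, without a call by limma or edgeR. Efnb2 read 24.7 and 17.7 in control and 34.4 and 33.4 in GOF (0.67, SE 0.26). Sema3d, a secreted class 3 semaphorin, read 8.15 and 6.91 against 12.4 and 12.2 (0.64, SE 0.37). Robo2 read 7.63 and 9.24 against 15.9 and 11.2, and Sema3f 13.6 and 14.98 against 20.7 and 18.8. None of these overlapped between genotypes. Over all 66 members the median log2 fold change was 0.09 in border-zone cartilage, compared with -0.04 over all targets, and 43 were positive.

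**Figure D4:**
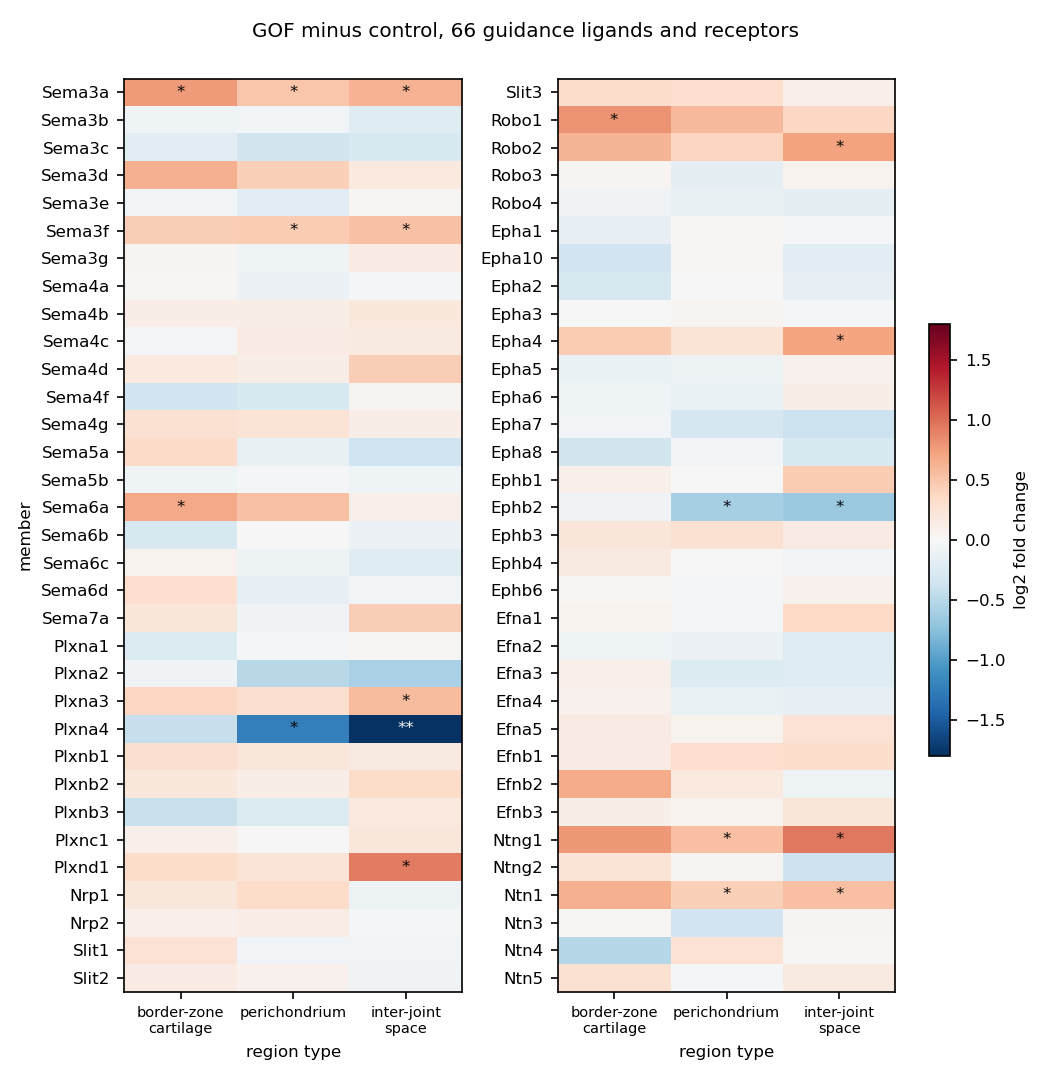
Log2 fold change (colour, GOF minus control on the log2(value + 1) scale) of each of the 66 guidance genes (rows) in 3 region types (columns), with 1 asterisk for an edgeR call and 2 for a limma call as well. Plxna4 in inter-joint space (-1.79) is the single member with 2 asterisks.

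Fusion regions, which exist in GOF knees alone, were compared with GOF inter-joint space and border-zone cartilage and with control inter-joint space, so these comparisons share animals with each other and with those above. Against GOF inter-joint space limma called 0 members and 0.222% of targets, and 3 members had an unadjusted p below 0.05, as did 2.49% of targets. EdgeR called 5 members, against 2.17% of targets, with Ntng1, Sema3f, Efna5 and Plxna2 lower and Slit3 higher in fusion. Ntng1 read 6.98 and 4.45 in fusion and 21.9 and 13.9 in GOF inter-joint space, with no overlap (log2 difference -1.49, SE 0.36, limma adjusted p = 0.142, edgeR adjusted p = 1.08e-06). Sema3f read 20.97 and 20.9 against 45.3 and 39.6, again with no overlap (-0.98, SE 0.26, limma adjusted p = 0.246, edgeR adjusted p = 4.77e-05). These 2 edgeR calls held in all 4 fits with 1 animal left out. The chondrocyte sum was 3616 and 4284 in fusion and 1008 and 1270 in GOF inter-joint space, and its part in these differences was not tested.

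Slit3, a secreted Robo ligand (chromosome 11, 35121456 to 35708507), read 9.13 and 13.3 in fusion, 7.69 and 4.46 in GOF inter-joint space and 4.88 and 6.04 in control inter-joint space. Fusion was above inter-joint space in each GOF animal (0.80 against GOF inter-joint space, SE 0.30, edgeR adjusted p = 0.0206, and 0.842 without GOF replicate 2). Fusion regions without the general interzone tag had a higher Slit3 median than those with it in both GOF animals. In GOF replicate 1 the 3 untagged regions had a median of 12.9 and the 6 tagged ones 6.96, and in GOF replicate 2 the 3 untagged regions had a median of 17.7 and the 5 tagged ones 10.88. The medians of Robo1 and Sema3a split the opposite way, with tagged above untagged regions. The Robo1 medians were 76.4 against 21.3 in GOF replicate 1 and 61.6 against 28.8 in GOF replicate 2, and those of Sema3a 25.95 against 9.67 and 27.2 against 6.80. Medians of Ntng1, Efnb1 and Plxna4 split in different directions in the 2 animals. Single regions overlapped between tags for Slit3 in GOF replicate 2, where untagged ones began at 12.2 and tagged ones reached 14.1. They also overlapped for Robo1 in GOF replicate 2 and for Sema3a in GOF replicate 1. No test was made of these splits. Efna5, a GPI-anchored ligand of EphA receptors, read 9.16 and 10.8 in fusion and 19.4 and 17.6 in GOF inter-joint space (edgeR adjusted p = 0.0129, and 0.616 without GOF replicate 1).

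Against GOF border-zone cartilage, fusion regions had few differences among the members. Limma called 0 members and 0.0103% of targets, and 3 members had an unadjusted p below 0.05 (0.76% of targets). EdgeR called Epha7 alone, against 0.372% of targets. Epha7 read 27.7 and 24.7 in fusion and 16.2 and 10.85 in GOF border-zone cartilage, with no overlap (0.93, SE 0.22, limma adjusted p = 0.561, edgeR adjusted p = 0.00454, and 0.072 without GOF replicate 2). Its fusion medians were 34.8 in tagged and 16.8 in untagged regions of GOF replicate 1 and 32.6 and 23.1 in those of GOF replicate 2, compared with border-zone medians of 17.1 and 10.2.

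Against control inter-joint space, limma called Plxna4 lower in fusion as its only member, against 0.729% of targets. Plxna4 read 7.002 and 10.4 in fusion, a range that overlapped GOF inter-joint space (9.12 and 7.32) and lay below control inter-joint space (29.03 and 32.4). The log2 difference from control inter-joint space was -1.73 (SE 0.31, limma adjusted p = 0.00589), and limma's adjusted p was between 0.0537 and 0.492 with 1 animal left out, so the call was lost each time. EdgeR called 6 members, against 4.15% of targets, with Plxna4 and Plxna2 lower and Slit3, Ntn1, Plxna3 and Efnb1 higher in fusion. The calls of Plxna4, Plxna2 and Slit3 held in all 4 edgeR fits with 1 animal left out. Plxna2, another A plexin, read 4.87 and 6.198 in fusion, 9.44 and 6.99 in GOF inter-joint space and 12.7 and 12.7 in control inter-joint space, and border-zone levels were 5.95 and 5.73 in control and 5.56 and 5.57 in GOF.

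The reference mesenchyme of control knees differed from perichondrium in 5 members by limma, against 2.03% of targets, and in 11 by edgeR, against 2.7%. Each animal gave 1 such region, and its skeletal muscle markers summed to 1386 and 908, compared with 56.3 and 56.1 in control perichondrium, so the comparison is also one of muscle content, whose part was not tested. Efnb1 read 33.7 and 32.6 in reference mesenchyme and 13.1 and 16.3 in perichondrium (log2 difference 1.13, SE 0.19, limma adjusted p = 0.00134). Slit3 read 20.7 and 13.6 against 6.25 and 7.37 (1.19, SE 0.30, limma adjusted p = 0.0417), and Sema6c, a membrane-bound semaphorin, 23.9 and 16.9 against 10.1 and 7.98 (1.08, SE 0.27, limma adjusted p = 0.0417). All 3 were higher in reference mesenchyme in both animals. Plxna4 was lower there, at 4.35 and 5.98 (-1.75, SE 0.31, limma adjusted p = 0.00174), and so was Sema5a, at 7.61 and 6.53 against 27.1 and 28.97 (-1.85, SE 0.40, limma adjusted p = 0.0117). Without control replicate 1 limma called 0 of these members, with adjusted p values of 0.183 for Efnb1, 0.777 for Slit3, 0.69 for Sema6c, 0.108 for Plxna4 and 0.439 for Sema5a. Without control replicate 2 it was 0.0661 for Slit3, 0.199 for Sema6c and 0.247 for Sema5a, and without GOF replicate 1 or 2 it was 0.161 and 0.16 for Slit3 and 0.0698 and 0.0704 for Sema6c. Efnb1 alone kept its edgeR call in all 4 fits with 1 animal left out.

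Coreceptors and intracellular effectors of these pathways, 78 of 80 listed genes measured, were described by the same tests. By genotype limma called 0 of the 78 in inter-joint space, perichondrium and border-zone cartilage, where it called at most 0.103% of all targets. EdgeR called 1, 0 and 0, against 1.86%, 1.18% and 0.16% of targets. The 1 call was the FLRT-family gene Flrt2, a ligand of UNC5 receptors, lower in GOF inter-joint space (-0.57, adjusted p = 0.0283). Flrt2 read 19.1 and 21.3 in control and 16.3 and 14.3 in GOF inter-joint space, with no overlap. Between control inter-joint space and border-zone cartilage limma called 1 of the 78, higher, against 1.3% of targets, and edgeR called 8 higher and 2 lower, against 5.33%, the lower ones being Sdc4, a syndecan, and Neo1, a netrin and RGM receptor. In fusion against control inter-joint space limma called 0 of the 78 (0.729% of targets) and edgeR 5 higher and 3 lower (4.15%), among them Rgmb, a Neo1 ligand, which read 41.2 and 43.6 against 17.2 and 16.7 (1.37, adjusted p = 1.29e-05). This level was not particular to fusion. Rgmb read 39.2 and 39.2 in GOF border-zone cartilage and 28.9 and 31.05 in GOF inter-joint space. In all 3 joint types both GOF animals were above both controls for Rgmb, without a genotype call.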

How the data were processed

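Regions of knee sections from 4 embryos were hybridised with barcoded probes of a mouse whole-transcriptome set, and the barcodes were sequenced per region. The deposited table holds linear signal values, which the authors brought to 1 shared upper quartile (10.88) computed on the full target list, per the file headers, without a target filter. The submitters' processing notes name Seurat and mm10 without a role, and for the counting pipeline the sources used here give nothing. The no-template control was not analysed here. Of the values, 99.98% were whole multiples of the region's smallest step within 0.01 counts, which gave recovered counts.

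Regions were matched to animals by scan name and to types by tag, with 1 region tagged "Inter-join space" taken as inter-joint space. The signal was averaged as log2(value + 1) per animal and type (22 values). limma 3.58.1 (R 4.3.3) fitted 11 genotype-by-type means with a trended prior and animal as a random block (estimated correlation 0.0258), which shares its spread over all types. edgeR 4.0.16 ran its quasi-likelihood test, with TMM scaling, on recovered counts summed per animal and type, and p-values of both tools were adjusted by Benjamini-Hochberg over 19346 targets per comparison. In edgeR, types of 1 animal count as separate samples. Both fits were also run on simulated data in which the region types of an animal were drawn independently. Spread shared by the types of an animal was therefore not tested. The alternatives were a pseudocount of 4, a filter on low values, CPM, the median over regions, joint regions alone, a replicate block and leaving out each animal, and, chosen after seeing the data, perichondrium without interzone tags, regions with at least 100000 counts, 1 genotype fitted alone and edgeR without each animal.

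Replicate numbers come from the labels and were not taken as pairs. Deviations of same-numbered animals correlated at 0.05 in border-zone cartilage, 0.05 in perichondrium and 0.03 in inter-joint space.

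Values per animal are given for members called by limma in a genotype comparison, for the 8 lowest p values in each genotype comparison and for the 6 largest called differences between types. Members called by edgeR alone were named after their values were seen. The members, lists and tests were chosen with earlier results of these data known. All 66 members matched a RefSeq gene (GRCm38.p6).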

Additional observations from a re-analysis of the deposited data

How the results depend on the processing

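No direction turned among the 37 results of named members. Most of these were picked for low p values or large differences in the same data, so an unchanged direction adds little support. Over all 66 members, edgeR moved the number with a positive value from 33 to 43 by genotype in perichondrium, from 50 to 41 for GOF inter-joint space against border and from 41 to 33 for fusion against GOF border, and the median for fusion against control inter-joint space from -0.02 to 0.0051. Limma's counts of called members were 1 in inter-joint space by genotype, 4 in control inter-joint space against border-zone cartilage, 1 in fusion against control inter-joint space, 5 in reference mesenchyme and 0 in the other comparisons. Fitting joint regions alone raised them to 10, 4 and 5 by genotype in inter-joint space, perichondrium and border-zone cartilage, to 15, 14 and 3 for control inter-joint space against border, perichondrium against border and space against perichondrium, to 12 and 2 for the first 2 of these in GOF animals, to 7, 6 and 9 for fusion against GOF space, GOF border and control space, and to 3 for the difference of genotype effects, with between 0.212% and 7.43% of all targets called. In that order, the percentages of all targets called by the joint-region fit were 2.69, 1.03, 0.212, 7.43, 2.7, 1.6, 5.37, 1.86, 4.57, 1.19, 5.21 and 0.765. In the same order edgeR gave 10, 6, 3, 13, 9, 2, 8, 2, 5, 1, 6 and 1, and 11 in reference mesenchyme. Perichondrium against border gave 1 call in controls with a pseudocount of 4, with the filter and with the median. Reference mesenchyme gave 3 calls with the replicate block and with 1 genotype fitted alone, and the replicate block moved no other count by over 1.5 times. With 1 animal left out, limma's counts ranged from 0 to 4 for control inter-joint space against border-zone cartilage, from 0 to 3 for reference mesenchyme and were 0 in every other comparison. EdgeR's ranged from 4 to 10, 1 to 10 and 0 to 6 by genotype in the 3 joint types, 7 to 17, 1 to 12 and 0 to 4 between control types, 4 to 6 and 1 to 2 between GOF types, 3 to 5, 0 to 1 and 3 to 7 for fusion, 0 to 2 for the difference of effects and 1 to 15 in reference mesenchyme. Over 37 results of named members, 636 alternative values held 47 that lost a call and 82 that gained one. The cause of these shifts was not tested. Shares of all targets called with 1 animal left out are not given here, so those ranges cannot be set against the background. Members near the negative probe are limited by background.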
